A study of Mus musculus with 36 samples.

Results

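The comparison of this report is a difference of differences in macrophages that were sorted from mouse hearts as negative for CCR2, a chemokine receptor of monocyte-derived cells. It set the Cre-dependent difference in mice with a TFEB expression cassette against the Cre-dependent difference in mice without it, so that changes shared by both genotypes cancel. All libraries labelled CCR2neg were used, 18 of the 36 in the series. TFEB-TG mice carried a TFEB sequence behind a stop element that Cre removes, and TFEB-wt mice lacked it. The TFEB-TG libraries were 4 labelled Cre-neg and 4 labelled mac-TFEB (with Cre), and the TFEB-wt libraries were 5 labelled Cre-neg and 5 labelled CX3CR1-Cre. The label numbers 1 to 4 and 1 to 5 joined a Cre-neg and a Cre library of the same genotype into a pair. The difference within TFEB-TG pairs is called the TFEB-TG arm, that within TFEB-wt pairs the TFEB-wt arm, and the first minus the second the interaction.

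Every mouse was fed tamoxifen for 7 days, underwent 90 min of cardiac ischemia, and gave its macrophages 7 days after that. The labels list a tamoxifen-inducible Cre under the Cx3cr1 promoter, which is active in many macrophages and some other leukocytes, and a Cre-dependent Td-Tomato reporter for both genotypes. How Cre-neg cells were obtained from such mice is not stated, nor are age, sex, the number of animals or whether a label number stands for 1 animal. The p-values therefore measure the spread between these libraries, which may in part be technical.

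TFEB belongs to the MiT/TFE family of helix-loop-helix factors. When it enters the nucleus it binds E-box sequences, among them the CLEAR element of many lysosomal and autophagy genes, and raises their transcription; mTORC1 signalling at the lysosome keeps it in the cytoplasm. Macrophages in an infarcted heart take up dead cells and lipid, so lysosomal breakdown, antigen presentation and chemokine release are functions in which the factor is commonly studied.

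Printed here are the upstream stretches of 3 genes with a called interaction that encode lysosomal proteins. They are shown because an E-box is present in 2 of them and absent from the third, the gene with the smallest p in the interaction. Each runs 5′ to 3′ on the strand of the gene and ends at the base before the RefSeq transcript start (RefSeq, GRCm38.p6), with the E-box CACGTG, or its extended form TCACGTGA, in capitals. The stretch of Ctsd is chr7:142387828-142388077 on the minus strand, that of Mcoln2 chr3:146149924-146150173 on the plus strand and that of Gpnmb chr6:49036268-49036517 on the plus strand.
Ctsd: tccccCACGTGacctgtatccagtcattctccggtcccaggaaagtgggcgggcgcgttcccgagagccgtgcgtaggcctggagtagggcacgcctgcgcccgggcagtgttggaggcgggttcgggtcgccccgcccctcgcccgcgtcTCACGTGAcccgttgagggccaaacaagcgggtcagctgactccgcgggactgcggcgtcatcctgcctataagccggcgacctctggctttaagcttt
Mcoln2: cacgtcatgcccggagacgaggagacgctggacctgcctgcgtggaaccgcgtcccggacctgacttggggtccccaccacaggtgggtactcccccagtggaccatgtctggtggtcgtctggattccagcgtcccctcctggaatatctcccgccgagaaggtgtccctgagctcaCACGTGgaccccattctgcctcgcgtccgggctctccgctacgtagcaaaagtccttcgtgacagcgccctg
Gpnmb: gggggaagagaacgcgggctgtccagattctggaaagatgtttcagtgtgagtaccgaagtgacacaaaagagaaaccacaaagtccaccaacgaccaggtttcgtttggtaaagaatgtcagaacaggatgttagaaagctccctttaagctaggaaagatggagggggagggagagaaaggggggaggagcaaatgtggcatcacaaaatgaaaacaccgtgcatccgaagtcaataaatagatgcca
The Ctsd stretch held an E-box at -245 and another, within TCACGTGA, at -98 from the start, and the Mcoln2 stretch held 1 at -72. In GENCODE vM21 the Ctsd gene model begins inside the printed stretch, so that the motif at -98 lies within that model and the E-box at -245 before it. The Mcoln2 gene model, at chr3:146149833-146195513, begins before the printed stretch, so that the printed Mcoln2 stretch and its E-box lie within that model. All 3 motifs searched (CACGTG, TCACGTGA and the CLEAR element, which is CACGTG with GT before it and AC after it) read the same on both strands. RefSeq promoter windows of 300 bases, the last 50 of them after the start, were found for 19 of the 28 genes with a called interaction, in 25 windows. CACGTG occurred in 12% of these windows, against 9.93% of the 12459 windows of tested genes and 7.15% of all 32851 windows. TCACGTGA occurred in 4%, against 1.83% and 0.974%, and the CLEAR element in 0 of 25, against 0.682% and 0.326%. The remaining gene with an E-box was Dnmt3a, which encodes a DNA methyltransferase. These are matches of letters in a window and say nothing about binding.

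The sort and the cell type were visible in the counts. Ccr2 ranged from 27.3 to 114 CPM (read counts scaled to library size) in the 18 CCR2neg libraries and from 302 to 1247 CPM in the 18 CCR2pos libraries. The macrophage genes Adgre1 and Csf1r reached at least 1689 and 1484 CPM in every CCR2neg library. Totals ran from 13797484 to 29896334 counts (median 19973723.5), with 12464 to 12770 of 12795 listed genes detected. The TFEB-TG 1 Cre-neg library stood apart by cardiomyocyte RNA: the 21 listed members summed to 1161 CPM there and to at most 323 CPM in the other 17 libraries. Both libraries of TFEB-TG pair 1 and of TFEB-wt pair 4 lay lowest on the first principal component, which held 23.8% of the variance. These libraries also had the highest fibroblast sums, 2376 and 1761 CPM in TFEB-TG 1 and 2065 and 1611 CPM in TFEB-wt 4 (without and with Cre). Their endothelial sums, 556 and 632 CPM and 290 and 378 CPM, were the highest too. The part of this RNA in single results was not tested. TFEB-wt pair 3 stood apart by thymocyte genes (Rag1, Dntt, Themis) on the second principal component, which held 13.6% of the variance. Its CX3CR1-Cre library lay at -84.4 and its Cre-neg library at -28.9, with the other libraries at -9.85 to 28.05. The pair thus also differed within itself, and the part of this in the TFEB-wt arm was not tested. Xist was present in 2 of 4 TFEB-TG pairs and in 4 of 5 TFEB-wt pairs.

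Tfeb itself (chr17:47737030-47792419, plus strand, GRCm38) was read first, since it checks the labels. The TFEB-TG Cre-neg libraries 1 to 4 held 37.5, 19.0, 17.3 and 12.8 CPM and their mac-TFEB partners 343, 254, 101 and 68.7 CPM. The TFEB-wt Cre-neg libraries 1 to 5 held 6.87, 4.61, 11.3, 5.51 and 5.90 CPM and the CX3CR1-Cre libraries 8.03, 9.04, 9.16, 7.64 and 6.92 CPM. No mac-TFEB library overlapped any other group, and all 4 TFEB-TG Cre-neg libraries also lay above all 10 TFEB-wt libraries. The TFEB-TG arm rose by 2.98 ± 0.22 (log2 fold change ± SE, 4 pairs), the TFEB-wt arm was 0.29 ± 0.21 (5 pairs, adjusted p = 0.483) and the interaction was 2.69 ± 0.29 (adjusted p = 0.00182, edgeR quasi-likelihood test). Whether reads of the cassette and of the endogenous gene are counted alike is not stated in the sources used here.

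Across all genes the interaction was called in 28 of 12768 tested genes (0.219%) at an adjusted p under 0.05, of which 22 were higher (0.172%) and 6 lower (0.047%). The arms had unequal numbers of calls: 261 genes were called in the TFEB-TG arm (2.04%), 138 of them higher (1.08%) and 123 lower (0.963%). In the TFEB-wt arm 872 genes were called (6.83%), 413 higher (3.23%) and 459 lower (3.59%). These shares of the arms are the background for the arm counts of gene lists below. The TFEB-TG arm had 4 pairs and the TFEB-wt arm 5, and a test with fewer pairs has less power. The call counts alone therefore do not compare how far the genotypes moved. The median log2 fold change over all tested genes was 0.01 and 0.02 in the arms and 0.00 in the interaction, and the median size of a change was 0.167 and 0.179. The interaction calls rest on comparing libraries within label pairs: with no pairing term edgeR called 0 genes (346 at an unadjusted p under 0.05), and with the label as a random effect limma called 0 (967 unadjusted), against 912 unadjusted (498 higher and 414 lower) with the pairs as a fixed term. Leaving out 1 pair gave 12 to 28 calls, with 15 and 12 without TFEB-TG pairs 3 and 4, 16 and 13 without TFEB-wt pairs 2 and 5, and 24 without both TFEB-TG pair 1 and TFEB-wt pair 3. The TFEB-TG arm fell to 103 to 154 calls without any 1 of its pairs and to 8 with no pairing term, and the TFEB-wt arm to 506 and 443 without its pairs 2 and 5 and to 184 with no pairing term.

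Most genes called in the TFEB-TG arm were also called in the TFEB-wt arm and moved the same way. The arms share no library. Of the 172 genes called in both, which are 65.9% of the TFEB-TG calls and 19.7% of the TFEB-wt calls, 76 rose in both, 93 fell in both and 3 moved in opposite directions. A further 89 were called in the TFEB-TG arm alone and 700 in the TFEB-wt arm alone. Over all tested genes the arms correlated at 0.414 (Pearson) and 0.312 (Spearman), a description over genes that are not independent. The shared changes were large: Duoxa2, a maturation factor of the hydrogen peroxide-forming oxidase DUOX2, rose by 4.30 ± 0.45 and 4.68 ± 0.42 (TFEB-TG and TFEB-wt arm). Cadm1, a cell adhesion molecule, rose by 1.70 ± 0.18 and 1.24 ± 0.16, and Alox15, a lipoxygenase of resident peritoneal and alternatively activated macrophages, fell by 2.56 ± 0.20 and by 2.90 ± 0.18. Prg4, the lubricin gene, fell by 2.79 ± 0.34 and by 3.02 ± 0.30, and the C-type lectin Cd209f fell by 3.03 ± 0.32 and by 2.66 ± 0.28. None of these 5 was called in the interaction (adjusted p = 0.719 to 0.957). Chil3, a chitinase-like protein of monocytes and alternatively activated macrophages, likewise fell in both arms (log2 fold changes of -2.64 ± 0.48 and -2.50 ± 0.43).

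**Figure D1:**
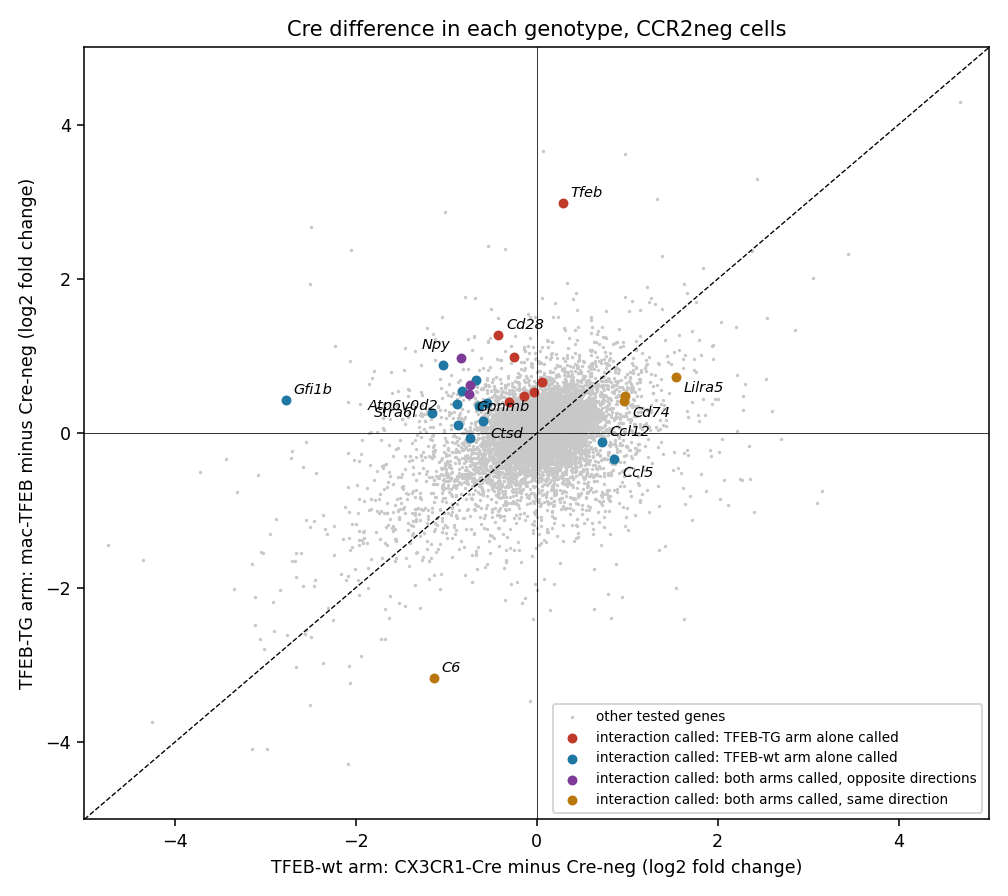
Each point is 1 of 12768 tested genes in CCR2neg cells, with the log2 fold change of the TFEB-wt arm (5 pairs) on the x axis, that of the TFEB-TG arm (4 pairs) on the y axis and equal change on the dashed line. Of the genes with a called interaction, 27 are coloured by which arm was called. Most of them lie on the upper left, where the TFEB-wt arm is below 0 and the TFEB-TG arm above it. The called gene that is not reported here by name is not drawn.

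The arm that was called differed between the 28 genes, and an arm without a call may still have moved. In 13 the TFEB-wt arm alone was called, in 8 the TFEB-TG arm alone, in 3 both arms in opposite directions and in 4 both arms in the same direction, and none lacked a call in both. The change was larger in the TFEB-wt arm in 17 of the 28 and larger in the TFEB-TG arm in 11. All 4 genes called the same way in both arms had a lower interaction: Lilra5, Cd74 and H2-Aa rose less in the TFEB-TG arm, and C6 fell more. The pair differences of the arms did not overlap in 27 of the 28, against 2.61% of all tested genes, with C6 as the exception. In 14 of the 28, against 0.54% of all tested genes, every TFEB-TG pair moved one way and every TFEB-wt pair the other. The interaction test used these same differences, so both counts describe the calls and do not support them.

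**Figure D2:**
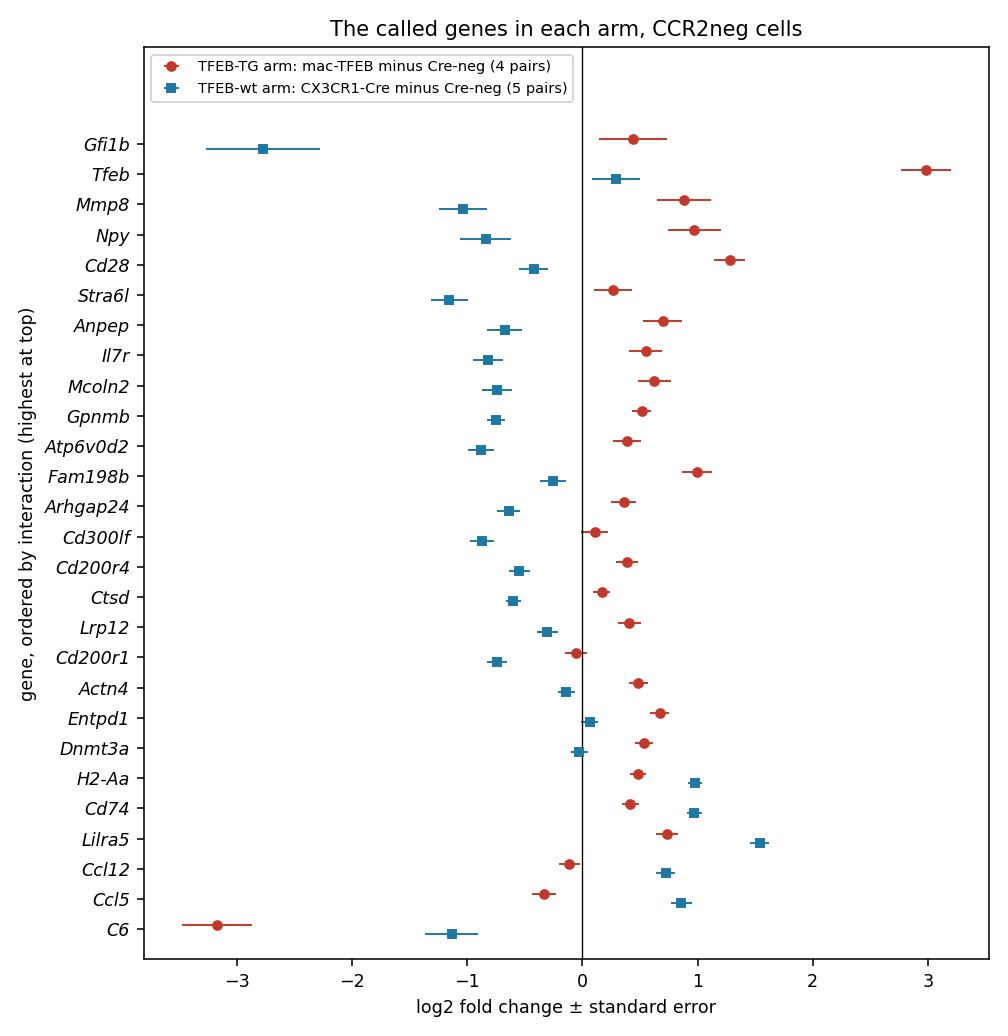
Log2 fold change ± standard error of the TFEB-TG arm (circles, 4 pairs) and the TFEB-wt arm (squares, 5 pairs) for 27 genes with a called interaction, ordered by the interaction. Tfeb, Entpd1 and Dnmt3a have a TFEB-wt arm near 0, whereas Cd200r1, Cd300lf and Ccl12 have a TFEB-TG arm near 0.

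Among lysosomal genes the interaction was positive in 4 called genes. Gpnmb, Mcoln2 and Atp6v0d2 belong to a list of 43 tested lysosomal membrane and proton pump genes, where 3 were higher and 0 lower, and Ctsd to a list of 51 lysosomal hydrolases, where 1 was higher and 0 lower. The background is 0.172% and 0.047%. Gpnmb encodes a transmembrane glycoprotein of lysosomes and phagosomes. TFEB-TG Cre-neg libraries held 870.3, 1719.5, 4241 and 3248 CPM of it and mac-TFEB libraries 1315, 2399.8, 5790.1 and 4686 CPM. In TFEB-wt, Cre-neg libraries held 875, 2101, 962, 1145 and 1306 CPM and CX3CR1-Cre libraries 618, 1308, 628, 620.0 and 617 CPM. The mac-TFEB library was the higher one in every TFEB-TG pair and the CX3CR1-Cre library the lower one in every TFEB-wt pair, although the levels of the Cre-neg groups overlapped. Gpnmb rose by 0.51 ± 0.09 in the TFEB-TG arm and fell by 0.75 ± 0.08 in the TFEB-wt arm, with an interaction of 1.27 ± 0.12 (adjusted p = 0.000159).

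Ctsd (chr7:142375911-142388038, minus strand), the gene of the protease cathepsin D, was called in the TFEB-wt arm alone. Its levels were 7063, 10193, 13171 and 11895 CPM in TFEB-TG Cre-neg and 7998, 10544, 14407 and 14711 CPM in mac-TFEB libraries. They were 7439, 10548, 6688, 7502 and 8396 CPM in TFEB-wt Cre-neg and 5709, 6889, 4641, 4680.2 and 4849.6 CPM in CX3CR1-Cre libraries. Every TFEB-TG library, with or without Cre, lay above every CX3CR1-Cre library. The TFEB-wt arm fell by 0.60 ± 0.07, the TFEB-TG arm was 0.17 ± 0.07 (adjusted p = 0.355) and the interaction 0.77 ± 0.10 (adjusted p = 0.00269).

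Atp6v0d2 encodes a d subunit of the membrane sector of the proton pump that acidifies lysosomes. TFEB-TG Cre-neg libraries held 74.0, 130.0, 308 and 160.3 CPM and mac-TFEB libraries 68.2, 198, 409 and 246 CPM. TFEB-wt Cre-neg libraries held 40.7, 231, 127, 102 and 114 CPM and CX3CR1-Cre libraries 29.5, 125, 57.9, 48.5 and 64.3 CPM. All 5 TFEB-wt pairs and TFEB-TG pair 1 were lower with Cre, and the other 3 TFEB-TG pairs higher. The TFEB-wt arm fell by 0.88 ± 0.11, the TFEB-TG arm was 0.38 ± 0.12 (adjusted p = 0.139) and the interaction 1.26 ± 0.16 (adjusted p = 0.00269). Mcoln2, a cation channel of endosomes and lysosomes, was called in both arms. Its pair differences, as log2 of the ratio of CPM + 0.5, were 1.17, 0.11, 0.71 and 0.52 in TFEB-TG and -0.57, -0.40, -0.97, -0.72 and -1.01 in TFEB-wt. All 9 pairs thus followed their arm. The TFEB-TG arm rose by 0.62 ± 0.15 and the TFEB-wt arm fell by 0.74 ± 0.13, with an interaction of 1.37 ± 0.20 (adjusted p = 0.00496).

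None of the other listed lysosomal and autophagy genes was called in the interaction. In the hydrolase list the TFEB-wt arm fell in 10 of 51 (Ctsk by 0.97, Ctsl by 0.69, Acp5 by 0.59) and rose in 3. Of all tested genes 3.59% fell and 3.23% rose in that arm. The TFEB-TG arm fell in 2 (Ctsl by 0.45 and Dnase2a by 0.40) and rose in 0, against 0.963% and 1.08% of all tested genes. The list's median log2 fold change was 0.02 in the TFEB-TG arm, -0.07 in the TFEB-wt arm and 0.07 in the interaction. Lipa, the lysosomal acid lipase, fell by 0.38 ± 0.07 in the TFEB-wt arm, and its TFEB-TG arm was 0.02 ± 0.08. The interaction of Lipa, 0.39 ± 0.11, was not called (adjusted p = 0.302). In the membrane and pump list the TFEB-wt arm fell in 5 of 43 and the TFEB-TG arm rose in 2, with an interaction median of 0.07. Of 44 autophagy genes, 0 were called in the interaction (2 higher and 2 lower at an unadjusted p under 0.05), where the median was 0.08. In the TFEB-TG arm Tecpr1, which links autophagosomes to lysosomes, rose by 0.63 and the autophagy receptor-like gene Calcoco1 by 0.51. Of 19 genes of the TFE family and its mTORC1 feedback, Tfeb alone was called in the interaction, and Fnip2, a folliculin partner in nutrient sensing, had 0.69 ± 0.16 (adjusted p = 0.130). In the TFEB-wt arm the family members Tfe3 and Tfec moved apart: Tfe3 rose by 0.35 and Tfec fell by 0.60.

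**Figure D3:**
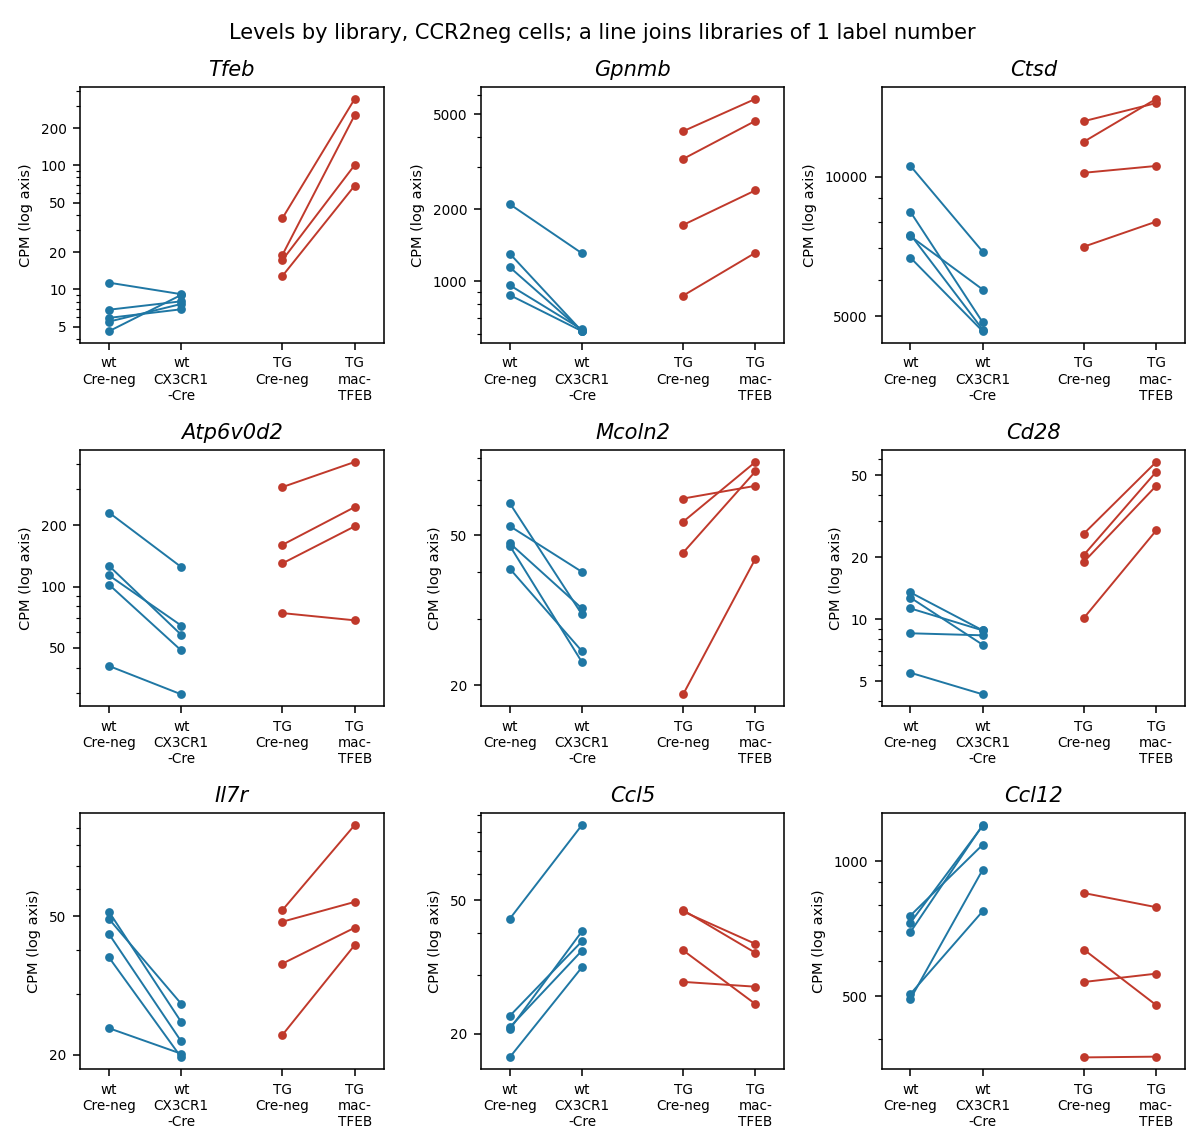
CPM on log axes in each of the 18 CCR2neg libraries for 9 genes, with a line joining the 2 libraries of a label number, TFEB-wt on the left and TFEB-TG on the right of each panel. Lines of Gpnmb, Ctsd, Mcoln2, Cd28 and Il7r fall in all 5 TFEB-wt pairs and climb in all 4 TFEB-TG pairs, and those of Ccl5 do the reverse.

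Lipid handling genes of macrophages leaned the same way without a call. Of 43 tested members 39 had a positive interaction, against 6443 of 12768 tested genes, and the list's median was 0.24, but 0 members were called (7 higher and 0 lower at an unadjusted p under 0.05). In the TFEB-wt arm 13 members fell and 0 rose, among them Spp1 (osteopontin) by 1.62, Nr1h3 (the oxysterol receptor LXR alpha) by 1.25 and Fabp5, a fatty acid carrier, by 1.03. In the TFEB-TG arm 3 fell, Olr1 by 1.75, Apoc2 by 0.99 and Abca1 by 0.35, and all 3 also fell in the TFEB-wt arm. The interaction was 0.87 ± 0.18 for Fabp5 (adjusted p = 0.0733) and 1.05 ± 0.21 for Lgals3, the galectin-3 gene (adjusted p = 0.0819). Glycolysis genes also had 0 calls (5 higher at an unadjusted p under 0.05) and a median interaction of 0.26. In the TFEB-wt arm 8 of 25 fell, such as Pgk1 by 0.86 and Pkm by 0.73, and 2 rose, and in the TFEB-TG arm Ldhb fell by 0.85.

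Of 11 tested antigen presentation genes, 5 rose in the TFEB-TG arm and 7 in the TFEB-wt arm, and 2 had a called, lower interaction. Cd74, the invariant chain that escorts MHC class II molecules, held 18046, 15101, 10938 and 10168 CPM in TFEB-TG Cre-neg and 28141, 18270.3, 13841 and 13489 CPM in mac-TFEB libraries. The TFEB-wt levels were 17439, 21970.0, 21749.6, 25532 and 20999.9 CPM without Cre and 37506, 38049.9, 43607, 50038 and 41338 CPM with Cre. Every pair rose, by 0.64, 0.27, 0.34 and 0.41 (log2) in TFEB-TG and by 1.10, 0.79, 1.00, 0.97 and 0.98 in TFEB-wt, so the arms did not overlap. The interaction of Cd74 was -0.55 ± 0.10 (adjusted p = 0.0284) and that of the class II alpha chain H2-Aa -0.50 ± 0.09 (adjusted p = 0.0418). The H2-Aa call was lost whichever of the 9 pairs was left out (adjusted p up to 0.229), and the Cd74 call without 6 of them: TFEB-TG 2, 3 and 4 and TFEB-wt 3, 4 and 5. The list's median was 0.33 in the TFEB-TG arm and 0.79 in the TFEB-wt arm, where Ifi30, a lysosomal thiol reductase, fell by 0.36. The interaction median was -0.37, and H2-Eb1, whose arms rose by 0.81 and 1.20, missed the threshold (-0.39 ± 0.09, adjusted p = 0.156). Lilra5, an activating immunoglobulin-like receptor of myeloid cells, rose by 0.74 ± 0.09 and 1.54 ± 0.09, with an interaction of -0.80 ± 0.13 (adjusted p = 0.0106, lost without TFEB-TG pair 4).

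Of the chemokine genes 2 had a called interaction, and both rose in the TFEB-wt arm alone. Ccl5, a chemokine for T cells and monocytes, held 46.7, 28.5, 35.4 and 46.3 CPM in TFEB-TG Cre-neg and 34.8, 27.6, 24.5 and 37.1 CPM in mac-TFEB libraries. In TFEB-wt it held 17.0, 20.6, 22.6, 44.0 and 20.9 CPM without Cre and 31.6, 40.4, 37.7, 83.9 and 35.4 CPM with Cre. It was lower with Cre in all 4 TFEB-TG pairs and higher in all 5 TFEB-wt pairs. The TFEB-wt arm rose by 0.86 ± 0.09, the TFEB-TG arm was -0.33 ± 0.10 (adjusted p = 0.134) and the interaction -1.19 ± 0.14 (adjusted p = 0.00144). Ccl12, a ligand of CCR2, had pair differences of 0.01, 0.06, -0.41 and -0.10 in TFEB-TG and 0.72, 0.79, 0.52, 0.61 and 0.96 in TFEB-wt. Only the TFEB-wt arm was called (0.72 ± 0.08, against -0.11 ± 0.09), and the interaction was -0.83 ± 0.12 (adjusted p = 0.00496). Of 35 inflammatory genes, 16 rose and 9 fell in the TFEB-wt arm (median 0.23), and 1 rose and 6 fell in the TFEB-TG arm (median 0.01). The interaction median was -0.24, with 0 members higher and 11 lower at an unadjusted p under 0.05, of which Ccl5 and Ccl12 were called. Ccl2, the main CCR2 ligand, rose by 0.47 ± 0.08 in the TFEB-wt arm and stayed near 0 in the TFEB-TG arm (SE 0.09), and its interaction of -0.47 ± 0.12 was not called (adjusted p = 0.204). Interferon response genes rose in 12 of 34 in the TFEB-wt arm (Mx1 by 0.57, Isg15 by 0.50) and in 0 in the TFEB-TG arm (3 higher and 2 lower at an unadjusted p under 0.05). The median of the interferon list was 0.31 in the TFEB-wt arm and 0.15 in the TFEB-TG arm, where 26 of 34 members were positive. The interaction median of the list was -0.20, positive in 4 of 34, with 0 called (6 lower at an unadjusted p under 0.05), of which Rtp4 had -0.50 ± 0.11 (adjusted p = 0.101).

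**Figure D4:**
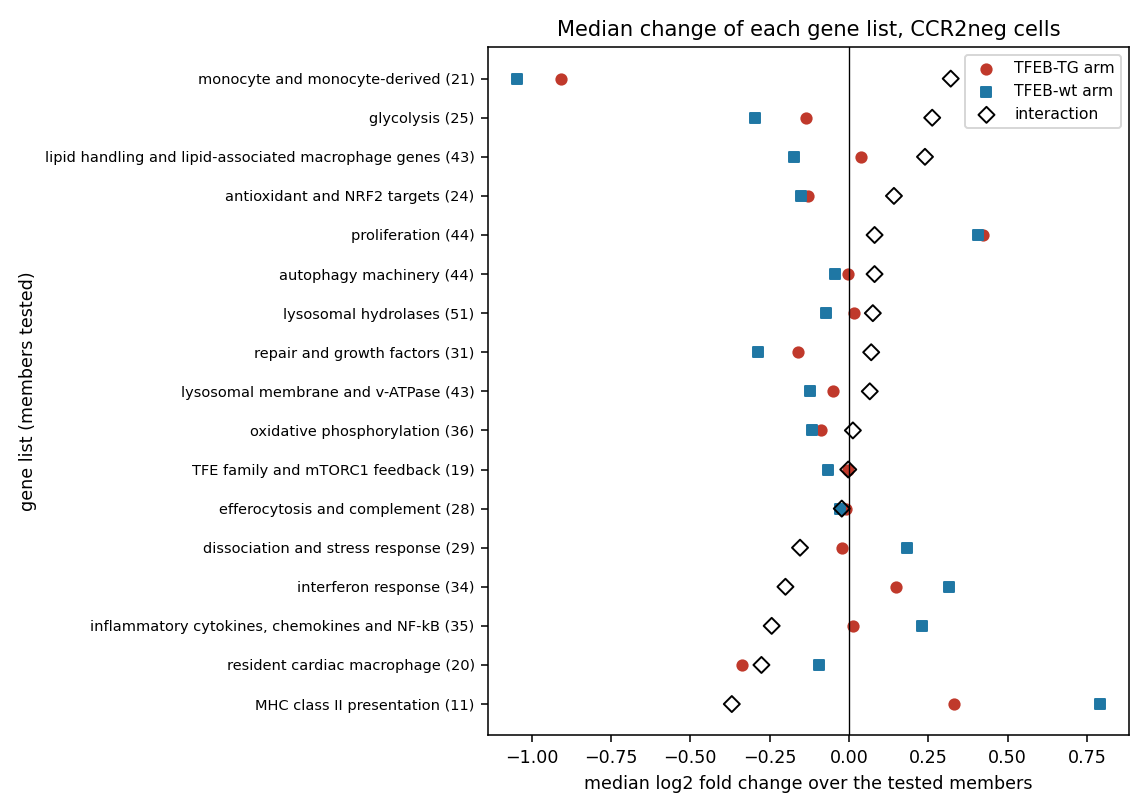
Median log2 fold change of the tested members of 17 gene lists in the TFEB-TG arm (circles), the TFEB-wt arm (squares) and the interaction (diamonds), with the number of members in brackets. The antigen presentation, resident cardiac macrophage, inflammatory and interferon lists have a negative interaction median (-0.37, -0.28, -0.24 and -0.20). The monocyte, glycolysis and lipid lists have a positive one (0.32, 0.26 and 0.24).

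Of 19 tested T and NK cell genes, 2 were called in the interaction, Cd28 and Il7r. The TFEB-TG arm alone was called for Cd28 and the TFEB-wt arm alone for Il7r. For both genes every TFEB-TG pair rose and every TFEB-wt pair fell. In all, 2 rose in the TFEB-TG arm (Cd28 and Cd4), and 1 rose and 2 fell in the TFEB-wt arm. Cd28, best known as the co-stimulatory receptor of T cells, held 10.2, 20.6, 26.1 and 19.0 CPM in TFEB-TG Cre-neg and 27.0, 52.0, 58.0 and 44.4 CPM in mac-TFEB libraries. In TFEB-wt it held 13.5, 12.8, 11.3, 8.57 and 5.51 CPM without Cre and 8.85, 7.53, 8.85, 8.37 and 4.33 CPM with Cre. All mac-TFEB libraries lay above all other libraries. The TFEB-TG arm rose by 1.28 ± 0.13, the TFEB-wt arm was -0.42 ± 0.12 (adjusted p = 0.0519) and the interaction 1.70 ± 0.18 (adjusted p = 0.000574). Il7r, a receptor chain for interleukin-7, had pair differences of 0.84, 0.34, 0.81 and 0.19 in TFEB-TG and -0.24, -1.04, -0.80, -1.01 and -0.94 in TFEB-wt. The TFEB-wt arm fell by 0.82 ± 0.13, the TFEB-TG arm was 0.55 ± 0.14 (adjusted p = 0.0632) and the interaction was 1.37 ± 0.19 (adjusted p = 0.00439). Defining T cell genes varied between the TFEB-TG pairs. From Cre-neg to mac-TFEB in pairs 1 to 4, Cd3e went from 2.90 to 0.174, from 17.1 to 18.8, from 1.01 to 1.24 and from 0.846 to 0.765 CPM. Lck, a T cell kinase, went from 3.84 to 5.70, from 36.5 to 39.7, from 3.73 to 4.29 and from 3.78 to 3.06 CPM. In TFEB-wt pairs 1 to 5, Cd3e held 1.20, 0, 7.885, 8.69 and 2.67 CPM without Cre. With Cre it held 0.546, 0.985, 2.95, 4.71 and 0.765 CPM. Lck in these pairs held 4.95, 2.70, 17.7, 9.48 and 4.455 CPM without Cre. With Cre it held 2.62, 3.88, 20.9, 15.2 and 3.36 CPM. The part of T cell RNA in the values of Cd28 and Il7r was not tested. The summed CPM of 19 T and NK cell genes, which include Cd28, Il7r and Cd4, was 107 to 252 and 172 to 349 in TFEB-TG and 69.98 to 178 and 72.3 to 144 in TFEB-wt (without and with Cre).

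Among the genes with a called interaction, few others were called in the TFEB-TG arm. Fam198b, which encodes a Golgi-associated protein, rose by 0.99 ± 0.13 and had an interaction of 1.25 ± 0.17 (adjusted p = 0.00439). Entpd1, the CD39 enzyme that breaks down extracellular ATP, held 417, 508, 332 and 401 CPM in TFEB-TG Cre-neg and 814, 708, 550.3 and 571 CPM in mac-TFEB libraries. It rose by 0.67 ± 0.08, while the TFEB-wt arm was 0.06 ± 0.07, and its interaction was 0.61 ± 0.11 (adjusted p = 0.0346). The actin crosslinker Actn4, the receptor Lrp12 and Dnmt3a rose by 0.49, 0.41 and 0.53 in the TFEB-TG arm, with interactions of 0.63, 0.71 and 0.56. Their TFEB-wt arms were -0.14, -0.30 and -0.03 (adjusted p = 0.315, 0.0527 and 0.885). With 1 pair left out, the call of Entpd1 was kept without TFEB-TG 2 alone, that of Lrp12 without TFEB-wt 1 alone, that of Actn4 without TFEB-TG 1 or TFEB-wt 3 or 4, and that of Dnmt3a in none of the 9 cases. C6, a component of the complement attack complex, was the gene of this group that fell. Its levels were 11.4, 24.0, 24.7 and 9.61 CPM in TFEB-TG Cre-neg and 0.814, 3.37, 1.71 and 1.84 CPM in mac-TFEB libraries. They were 61.2, 13.5, 22.7, 45.2 and 18.1 CPM in TFEB-wt Cre-neg and 13.4, 6.78, 14.7, 18.1 and 12.4 CPM in CX3CR1-Cre libraries. C6 was lower with Cre in all 9 pairs, by 3.17 ± 0.30 in the fit of the TFEB-TG arm and by 1.14 ± 0.23 in that of the TFEB-wt arm (interaction -2.04 ± 0.38, adjusted p = 0.0447, kept without TFEB-TG 4 or TFEB-wt 1 alone).

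Other genes with both a called interaction and a called TFEB-wt arm included those of receptors, enzymes and regulators. Cd300lf, a lipid-sensing inhibitory receptor, fell by 0.87 in the TFEB-wt arm, Cd200r4 by 0.55, Cd200r1, the inhibitory receptor for CD200, by 0.74 and Arhgap24 by 0.64. Their interactions were 0.98, 0.93, 0.69 and 1.00. Their TFEB-TG arms, at 0.105, 0.388, -0.055 and 0.358, were not called. Stra6l, a receptor for retinol-binding protein, fell by 1.16 with an interaction of 1.42, and Anpep, aminopeptidase N, fell by 0.67 with an interaction of 1.37 ± 0.23. The TFEB-TG arm of Stra6l was 0.26 ± 0.17 (adjusted p = 0.561) and that of Anpep 0.70 ± 0.17 (adjusted p = 0.0620). For Anpep both arms thus moved by a like amount, in opposite directions, and only the TFEB-wt arm passed the threshold. Mmp8, a collagenase, fell by 1.04 ± 0.21 and had an interaction of 1.92 ± 0.32 (adjusted p = 0.0153, lost without TFEB-TG pairs 2, 3 or 4 or TFEB-wt pair 5). Its TFEB-TG arm was 0.89 (adjusted p = 0.0729). Mmp8 is abundant in neutrophils, whose gene S100a8 stood at 1.83 to 8.91 CPM in TFEB-wt Cre-neg and at 0.279 to 2.34 CPM in CX3CR1-Cre libraries. In TFEB-TG, where Mmp8 was higher with Cre in all 4 pairs, S100a8 was lower with Cre in all 4, at 2.63 to 7.3 and 0.524 to 2.65 CPM. The part of neutrophil RNA in the result was not tested. Npy, the neuropeptide Y gene, was called in both arms, with pair differences of 0.58, 1.25, 0.67 and 1.20 in TFEB-TG and -0.05, -1.34, -0.72, -0.34 and -1.23 in TFEB-wt and an interaction of 1.81 ± 0.32 (adjusted p = 0.0284). Calls were lost for Npy without TFEB-TG 2, 3 or 4 or TFEB-wt 2 or 5, for Stra6l without TFEB-TG 3 or 4 or TFEB-wt 2 or 5, and for Cd300lf without TFEB-TG 3 or 4 or TFEB-wt 5. The call of Arhgap24 was lost without TFEB-TG 4, that of Anpep without TFEB-TG 1 or 4 or TFEB-wt 2, 3, 4 or 5, and that of Cd200r1 without any pair but TFEB-wt 1.

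Gfi1b, a transcriptional repressor of erythroid and megakaryocyte development, had the largest fitted interaction of the 28, 3.21 ± 0.58 (adjusted p = 0.0332). Its levels were 12.9, 12.5, 13.9 and 15.7 CPM in TFEB-TG Cre-neg and 21.5, 14.2, 20.2 and 19.2 CPM in mac-TFEB libraries. The TFEB-wt libraries held 8, 20, 21, 10 and 36 reads of it without Cre and 5, 1, 0, 0 and 9 reads with Cre. All TFEB-TG libraries were thus far above all TFEB-wt libraries, with or without Cre, and the TFEB-wt arm rests on so few reads that its fold change depends on how small counts are handled. The TFEB-TG arm was 0.44 ± 0.29 (adjusted p = 0.596). The Gfi1b call was kept only without TFEB-wt pair 1 or 3, and lost without any other pair.

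Cx3cr1, whose promoter drives Cre, rose in both arms. TFEB-TG libraries held 224, 279, 191 and 284 CPM without Cre and 331, 434, 350.0 and 344 CPM with Cre. TFEB-wt libraries held 204, 266, 135, 245 and 238 CPM without Cre and 554, 488, 269, 459 and 447 CPM with Cre. The rise was 0.59 ± 0.10 in the TFEB-TG and 1.03 ± 0.09 in the TFEB-wt arm, and the interaction of -0.44 ± 0.14 was not called (adjusted p = 0.413). An exact permutation test over the 126 ways to split the 9 pair differences gave a two-sided p of 0.0159, the smallest possible, for Cx3cr1, Tfeb, Gpnmb, Ctsd, Cd74 and Gfi1b, 0.0317 for Lipa and 0.571 for Ccr2 (adjusted over the 8 genes 0.0212, 0.0363 and 0.571). The smallest p follows wherever the pair differences of the arms do not overlap. The 8 genes were named with earlier results of these data known, so this test describes them and gives no independent support. Over all genes Cx3cr1 stayed uncalled.

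Monocyte and cell cycle genes had no called interaction. In bulk samples fewer cells of a type and less RNA per cell cannot be told apart. Of 21 monocyte genes, 14 fell and 1 rose in the TFEB-wt arm (median -1.04) and 3 fell in the TFEB-TG arm (median -0.91), with 0 called in the interaction (0 higher and 1 lower at an unadjusted p under 0.05). Fn1, Vcan and Plac8 fell by 2.05, 1.66 and 1.34 in the TFEB-wt arm. Of 44 proliferation genes, 15 rose in the TFEB-wt and 6 in the TFEB-TG arm, with medians of 0.41 and 0.42 and 0 called in the interaction (2 higher at an unadjusted p under 0.05). Top2a, which untangles chromosomes in division, rose by 0.78 and 0.48. Resident cardiac macrophage genes fell in 6 of 20 in the TFEB-TG arm (median -0.34), with Timd4 down by 1.08 and Lyve1 by 1.14, and in 5 in the TFEB-wt arm (median -0.09), and Cx3cr1 rose in both. Their interaction median was -0.28, with 0 called (5 lower at an unadjusted p under 0.05). The cardiomyocyte list had an interaction median of -1.03 and the fibroblast list of -1.09, with 0 called in either, beside the cardiomyocyte RNA of the TFEB-TG 1 Cre-neg library. Without that pair the interaction was called in 24 genes, and the part of this RNA in single results was not tested.

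CCR2-positive cells of the same design gave smaller values of the same sign. Of the 28 genes 26 had the same sign there, against 50.2% of all tested genes, and 11 had an unadjusted p under 0.05. Gfi1b and Mmp8 were the exceptions, at -0.44 ± 0.53 and -0.42 ± 0.64. The median interaction of the 22 higher genes was 1.27 in CCR2neg and 0.44 in CCR2pos cells, and that of the 6 lower genes -0.82 and -0.29. Since the CCR2neg values chose these genes, the sizes side by side are a description. Tfeb had 1.75 ± 0.38, Cd28 1.19 ± 0.26 and Gpnmb 0.77 ± 0.37 in CCR2pos cells. With edgeR 0 of 12795 genes were called in the CCR2pos interaction (0%, 343 at an unadjusted p under 0.05), and 0 in the difference between the fractions (0%, 469 unadjusted), so no gene was shown to respond in one fraction and not in the other.

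**Figure D5:**
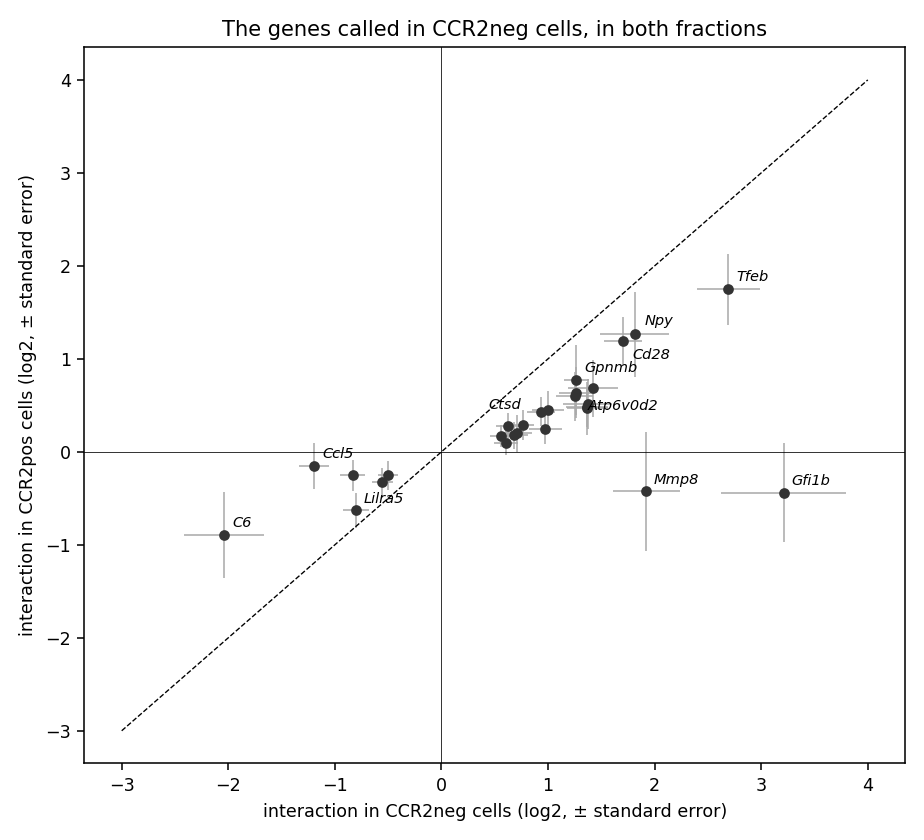
Interaction in CCR2neg cells (x axis) and in CCR2pos cells (y axis), as log2 ± standard error, for 27 genes called in CCR2neg cells, with equal values on the dashed line. All 27 points but Gfi1b and Mmp8 have the same sign in both fractions, and Gfi1b and Mmp8 lie below 0 on the y axis.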

How the data were processed

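PolyA RNA of 18 CCR2neg libraries was analysed, with 18 CCR2pos libraries beside them. The authors deposited 1 table of raw read counts per gene for 12795 genes, already filtered in a way the sources used here do not state. Per the labels' protocols, libraries were made from sheared cDNA and read as unstranded single reads. Per the submitters' processing notes the build was GRCm38 and the tools included HTSeq, TopHat2 2.0.10, TopHat, Bowtie2, edgeR and DESeq. All 36 columns were matched to samples by title. Counts of unstranded reads cannot tell overlapping genes apart: exons of Ctsd, Cd74, Fam198b, Dnmt3a and Actn4 overlap another gene in GENCODE vM21 (GRCm38). Reads shared by near-identical copies make the values of Cd200r1, Cd200r4, Ccl12 and the Cd209 genes uncertain.

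Counts were tested with edgeR 4.0.16 (R 4.3.3): TMM normalization (factors 0.953 to 1.08), the expression filter (minimum count 10, which left out 27 genes), a term for each of the 9 label pairs, a Cre term per genotype, robust quasi-likelihood F-tests with 7 residual degrees of freedom and Benjamini-Hochberg adjustment over all 12768 genes. An adjusted p under 0.05 is a call. Standard errors were derived from the fold change and F. The CCR2pos interaction and its difference from the CCR2neg one came from 1 such fit to all 36 libraries. CPM are counts scaled to TMM-adjusted library size, and pair differences used a pseudocount of 0.5 CPM. The calling code was tested on simulated data.

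Libraries of 1 group differed by more than sampling noise in all 32 comparisons (chi-square per degree of freedom 22.1 to 118). Deviations from group means of same-numbered libraries correlated at 0.298 to 0.632 in TFEB-TG and 0.139 to 0.479 in TFEB-wt, above 0.1 in each pair, so the label was kept as a block. The mac-TFEB library of TFEB-TG 3 correlated more with the Cre-neg library of number 4 (0.432) than with its own (0.298). The other 3 of 4 TFEB-TG and all 5 TFEB-wt libraries with Cre correlated best with their own number. For TFEB-wt 5 the margin was small, at 0.139 with its own number against 0.133 with number 4. At this depth the spread between libraries (common dispersion 0.041), not counting error, sets the precision, except for genes with few reads.

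The genes and the 28 gene lists were chosen with earlier results of these data known. The text names Tfeb, Cx3cr1, Ccr2, Gpnmb, Lipa, Ctsd, Cd74 and Gfi1b. It adds the 12 largest called increases and decreases of the interaction and the 6 of each arm, with a group mean of at least 10 CPM and without unnamed gene models, and up to 3 members of a list with the smallest p in the interaction. The other called genes (Entpd1, Actn4, Lrp12, Dnmt3a, Arhgap24, Cd300lf, Cd200r4 and Cd200r1) and list members given with arm values alone were chosen after their values were seen. A called gene that counts in all totals is not reported here by name. Lists are described by counts and medians, with no test. Alternatives were no block, the label as a random effect (limma 3.58.1), all 36 libraries, DESeq2 1.42.0 (size factors and Wald test), limma-voom with quality weights, other filters, pairs with Xist (10 CPM or more) alone and leaving out pairs or libraries. Leaving out TFEB-TG pair 1 and TFEB-wt pair 3 together was chosen after seeing the data.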

Additional observations from a re-analysis of the deposited data

Results flagged for a closer look

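In 14 of the 28 genes with a called interaction, and in 69 of all 12768 tested genes, every TFEB-TG pair moved one way and every TFEB-wt pair the other way. For the 14 the interaction test gave the size of the difference between the arms. The difference (TFEB-TG arm minus TFEB-wt arm, log2) was 1.27 for Gpnmb, 0.77 for Ctsd, 1.37 for Mcoln2, 1.70 for Cd28, 1.37 for Il7r, 1.25 for Fam198b and 0.63 for Actn4. It was 1.81 for Npy, 1.37 for Anpep, 1.92 for Mmp8, 1.00 for Arhgap24, 0.93 for Cd200r4, 3.21 for Gfi1b and -1.19 for Ccl5. The Gfi1b value rests on few TFEB-wt reads, and its mean pair differences, with the pseudocount, were 1.53 apart. In 13 of these the TFEB-TG pairs were the higher ones, and Ccl5 was the exception. The 14 were taken from the genes called with the pairs as a term, and none was called without it.

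One pair lay far from the others of its arm in 3 of the 60 sets of pair differences examined, where chance gives about 1 in 20. All 3 concerned TFEB-wt pair 1, the only TFEB-wt pair without Xist. Its Cx3cr1 difference was 1.44, against 0.87 to 0.99 in the other 4 pairs. Its Lipa difference was -0.0856, against -0.54 to -0.42. Its Gfi1b difference was -0.149, against -1.50 to -1.15.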

How the results depend on the processing

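The 27 called genes reported here kept the sign of their interaction in every setting run. The number of calls depended most on the pairing of libraries by label number. With no replicate block the interaction was called in 0 genes, the TFEB-TG arm in 8 and the TFEB-wt arm in 184. With the block as a random effect (correlation 0.403) the counts were 0 and 145, and the smallest adjusted p of the interaction was 0.0833. The DESeq2 Wald test gave 101 and 482 calls in the interaction and the TFEB-TG arm, limma-voom with quality weights 62 and 538, and the pairs with Xist alone 56 and 43. Without TFEB-TG pair 1 and TFEB-wt pair 3 together, an alternative chosen after seeing the data, the TFEB-TG arm had 164 calls. With 1 pair left out the counts ranged from 12 to 28 in the interaction, 103 to 326 in the TFEB-TG arm and 443 to 921 in the TFEB-wt arm. With 1 library left out and no block they ranged from 0 to 0, from 2 to 11 and from 72 to 238. The difference between the fractions had 0 calls in every setting run for it. The cause of these shifts was not tested.

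Of these genes 11 kept their call whichever pair was left out (Tfeb, Gpnmb, Ctsd, Cd28, Il7r, Mcoln2, Atp6v0d2, Fam198b, Ccl5, Ccl12 and Cd200r4), and 16 lost it at least once. In 5 genes the sign of 1 uncalled arm turned when 1 pair or library was left out. The TFEB-TG arm ranged from -0.215 to 0.15 for Cd200r1 (0.0498 in the pairs with Xist alone), from -0.350 to 0.0867 for Ccl12 and from -0.0360 to 0.266 for Cd300lf. The TFEB-wt arm ranged from -0.0695 to 0.0129 for Dnmt3a and from -0.00752 to 0.123 for Entpd1. Few reads limit Gfi1b in TFEB-wt.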

Other observations

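Of 36 oxidative phosphorylation genes, 5 fell in the TFEB-TG arm, all of them encoded by mitochondrial DNA (mt-Nd1, mt-Nd2, mt-Nd4, mt-Nd5 and mt-Cytb, which fell by 0.56 to 0.66), and 0 were called in the TFEB-wt arm (1 higher and 6 lower at an unadjusted p under 0.05). The interaction of mt-Nd2 was -0.55 ± 0.14 (edgeR adjusted p = 0.224), so a difference between the arms was not shown. Gdf15, a stress-induced cytokine, rose by 1.50 ± 0.26 in the TFEB-TG arm, with an interaction of 1.32 ± 0.34 (adjusted p = 0.302). Mmp13, a collagenase, rose by 0.96 ± 0.13 in the TFEB-TG arm and by 1.73 ± 0.11 in the TFEB-wt arm, and its interaction of -0.77 ± 0.17 was not called (adjusted p = 0.100). Cd4 rose by 1.59 ± 0.13 and by 0.77 ± 0.12 in the 2 arms (interaction 0.82 ± 0.17, adjusted p = 0.0856).

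In the TFEB-wt arm 11 of 31 repair and growth factor genes fell and 2 rose. Those that fell included Arg1, Fn1 and Vegfa, which fell by 2.07, 2.05 and 1.29. In the TFEB-TG arm 3 fell (Retnla, Mmp9 and Chil3) and 3 rose (Mmp13, Gdf15 and Pdgfa). Antioxidant genes fell in 7 of 24 in the TFEB-wt arm and in 1, Prdx6, in the TFEB-TG arm, with 0 called in the interaction (2 higher at an unadjusted p under 0.05).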
